A study of Mus musculus with 100 samples.

Results

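Injured knee joints of MRL/MpJ mice were compared between 1-week and 1-day post-injury, over every gene of the count table. The 1-week group held 5 libraries and the 1-day group 5, of 100 libraries in the series, and all 10 were taken by their labels for strain, joint and collection time and belong to sequencing batch 1. MRL/MpJ is an inbred mouse strain known for more complete healing of some wounds than other laboratory strains. The mice were 10 weeks old when the right knee received a single compressive load, which ruptured the anterior cruciate ligament, and buprenorphine was given to all of them after the injury. RNA came from whole joints with traces of soft tissue, so bone, marrow, cartilage, ligament, synovium and muscle were measured together. Set beside the 10 libraries were the uninjured contralateral joints of MRL/MpJ mice injured in the other knee (5 libraries at 1-day, 4 at 1-week), untouched MRL/MpJ joints at 0-day (4 libraries) and the injured joints of the strains C57BL/6 and STR/ort at the same times (5 libraries each). C57BL/6 is the common reference strain, and STR/ort mice develop osteoarthritis without injury. Nothing in the labels ties a library to an animal, so p-values measure the spread between these libraries, part of which may be technical.

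A torn ligament is followed first by an inflammatory phase, in which damaged and resident cells release chemokines, cytokines and acute-phase proteins that draw leukocytes into the joint. In the repair phase that comes after it, fibroblasts of the synovium, capsule and ligament divide and lay down new matrix, first rich in collagen III and later remodelled. The matrix carries small leucine-rich proteoglycans that set the width of collagen fibrils, microfibrils that bind growth factors, and proteases with their inhibitors that turn it over.

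Total counts of the 10 libraries ran from 7520285 to 12253482, and 17105 of 17310 genes had enough counts to be tested. Levels are given as counts scaled to library size (CPM) in replicate order, and differences on the log2 scale as 1-week minus 1-day with their standard error (SE). A gene was called where the adjusted p of edgeR's quasi-likelihood test was below 0.05 and the fold change above 1.5. The first principal component of the 10 libraries (35.2% of the variance) put the 1-day libraries between -20.1 and -12.6 and the 1-week libraries between 13.3 and 21.7. The second (19.1%) was led by 1-day replicate 5 and 1-week replicate 3, in which 15 fast-muscle genes summed to 105659 and 105797 CPM, against 59787 to 72753 in the other 1-day and 63785 to 83236 in the other 1-week libraries. Markers of the joint's tissues were present: 19 cartilage matrix genes summed to 4488 to 7165 CPM at 1-day and 4782 to 6429 at 1-week, and 14 marrow neutrophil genes to 15369 to 20170 and 16083 to 21102. Of 8 skin genes 1 is listed in the table, Krt10, at 0.75–1.47 CPM at 1-day and 1.18–1.98 at 1-week. In a whole joint, fewer cells of one type and less RNA per cell cannot be told apart.

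Of 17105 genes tested, 605 (3.54%) were called between 1-week and 1-day. Of these, 433 (2.53%) were higher at 1-week and 172 (1.01%) lower. The median fold was 1.92 among the genes called higher and 2.00 among those called lower, and 11 of the first and 7 of the second passed 8-fold. The values of the 5 and 5 libraries did not overlap for 471 of the 605 called genes, or 77.9%, and for 1167 of all genes tested, or 6.82%. Without the 2 muscle-rich libraries 528 genes were called, of which 488 were among the 605.

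**Figure D1:**
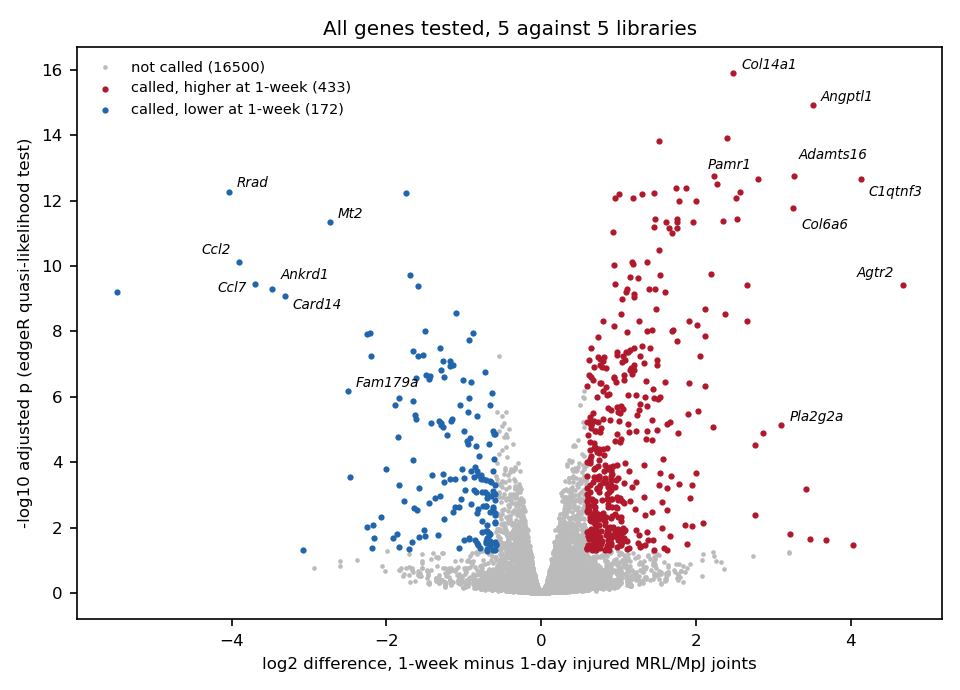
Each point is 1 of 17105 genes, with the log2 difference between 1-week and 1-day injured MRL/MpJ joints (5 libraries each) on the x axis and -log10 of the adjusted p on the y axis. Red points are the 433 genes called higher and blue points the 172 called lower, and Col14a1 has the smallest adjusted p of all, 1.25e-16.

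The largest rises and falls were picked among called genes whose groups did not overlap, so their lack of overlap follows from the choice. The genes that rose most encode secreted proteins, a receptor and matrix components. Agtr2 (chrX:21484624-21488833), the type 2 receptor of angiotensin II, was nearly silent at 1-day, with 0, 0, 0.0938, 0.534 and 0.272 CPM, or 10 reads in the 5 libraries together. At 1-week it stood at 4.39, 4.09, 6.60, 5.69 and 4.03 CPM, or 257 reads. Every 1-week library lay above every 1-day library, with a log2 difference of 4.67 ± 0.38 (25.4-fold, adjusted p = 3.77e-10).

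C1qtnf3 (chr15:10952119-10980162), a secreted protein of the C1q and TNF related family that chondrocytes make, went from 8.21, 6.29, 5.35, 6.06 and 6.90 CPM to 74.7, 98.3, 207, 119.6 and 73.9 CPM. The lowest 1-week library was far above the highest 1-day library, and the rise was 17.5-fold (log2 4.13 ± 0.23, adjusted p = 2.18e-13). Angptl1 (chr1:156839023-156861078), a secreted angiopoietin-like protein, read 6.26, 8.59, 4.69, 6.24 and 8.26 CPM at 1-day and 73.7, 74.1, 102, 73.7 and 66.2 CPM at 1-week, a rise of 11.4-fold (log2 3.51 ± 0.15, adjusted p = 1.18e-15). Replicate 3, a muscle-rich library, was the highest 1-week library for both genes, and both stayed called without it. Among 7 measured C1q and TNF related genes, a family picked by symbol once results were known, 4 rose: C1qtnf3, C1qtnf2 (log2 2.66), C1qtnf7 (1.22) and C1qtnf1 (0.93).

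Adamts16 (chr13:70727798-70841845), a secreted metalloproteinase, rose 9.63-fold from 0.545–0.797 to 5.61–7.53 CPM (adjusted p = 1.72e-13). Col6a6 (chr9:105689417-105828246), a chain of microfibrillar collagen VI, rose 9.55-fold from 0.938–2.00 to 10.1–16.1 CPM (adjusted p = 1.65e-12). Pamr1 (chr2:102549939-102643041), a secreted protein named for its association with muscle regeneration, rose 6.94-fold from 3.0–5.61 to 26.4–41.2 CPM (adjusted p = 2.22e-13). For these 3 genes no 1-week library overlapped a 1-day library, as the choice required. Pla2g2a (chr4:138831857-138835189), which encodes a secreted phospholipase and is annotated by RefSeq as a transcribed pseudogene, rose 8.57-fold on few reads, 14 at 1-day and 118 at 1-week (adjusted p = 7.21e-06). Tmem196, which encodes a membrane protein, rested on 8 and 55 reads (log2 2.77 ± 0.42, adjusted p = 3.02e-05).

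Part of this rise started below the level of the opposite knee. At 1-day, injured minus contralateral joints differed by log2 -0.86 ± 0.17 for Angptl1 (adjusted p = 0.00127), -1.16 ± 0.24 for Col6a6 (0.00257), -0.84 ± 0.17 for Pamr1 (0.00222) and -1.69 ± 0.51 for Pla2g2a (0.0426). At 1-week the same difference was 2.58 ± 0.15, 1.85 ± 0.19, 1.87 ± 0.15 and 1.66 ± 0.39. These 4 transcripts were thus below the contralateral joint at 1-day and above it at 1-week, all past the threshold. For Agtr2 and C1qtnf3 the 1-day difference missed the threshold (-0.51 ± 0.65 and 0.025 ± 0.28), and the 1-week difference was 4.86 ± 0.44 and 4.10 ± 0.25.

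**Figure D2:**
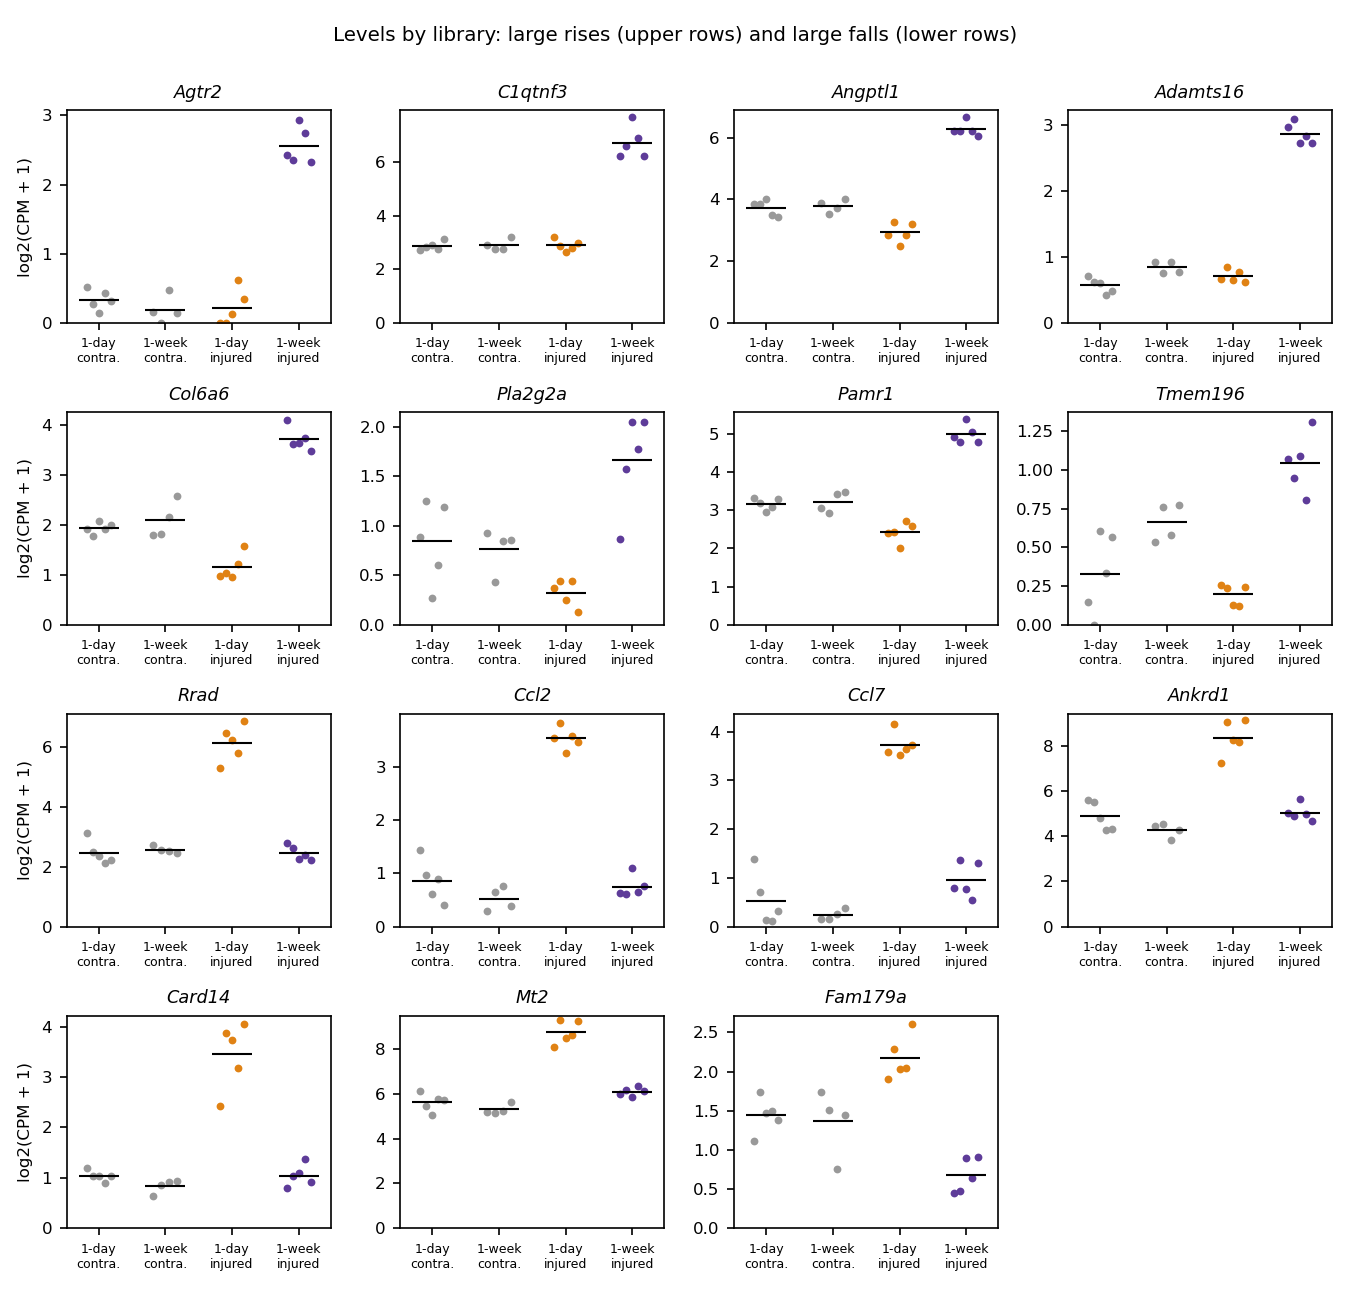
The y axes give log2(CPM + 1), 1 point per library with the mean as a line, in contralateral (grey) and injured (orange at 1-day, purple at 1-week) MRL/MpJ joints, for the 8 largest rises in the upper rows and 7 large falls in the lower rows. Angptl1, Col6a6 and Pamr1 sit below the grey points at 1-day and above them at 1-week, and Rrad, Ccl2, Card14 and Mt2 stand apart from the other groups at 1-day.

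Collagens of newly laid matrix rose together. Of 12 genes listed as fibrillar and microfibrillar collagens, 8 were called higher and 0 lower, and the count stayed at 8 in all alternatives. The median log2 difference was 1.04, against -0.00114 over all genes tested. This list and those below were written with earlier results of these data known. Their counts and medians therefore describe the listed genes and test nothing about the group. Col14a1 (chr15:55307644-55520803), which links fibrils, read 34.3, 31.1, 25.3, 26.5 and 35.4 CPM at 1-day and 188, 173, 171, 166 and 154 CPM at 1-week. The 1-week values were close to each other and all above the 1-day values (log2 2.47 ± 0.094, 5.56-fold, adjusted p = 1.25e-16). Col3a1, the fibrillar collagen of early scar and granulation tissue, went from 1591, 2010.1, 1251, 1429 and 1519 CPM to 5196, 4976, 6124, 5231 and 4926 CPM (log2 1.76 ± 0.11, 3.38-fold, adjusted p = 3.77e-12). Collagen VI chains followed, with log2 1.52 ± 0.11 for Col6a2, 1.45 ± 0.10 for Col6a1 and 0.98 ± 0.10 for Col6a3. Col5a3 (log2 1.20 ± 0.10) and Col5a1 (1.09 ± 0.09) encode collagen V, which seeds fibrils, and Col16a1 (0.68 ± 0.10) completes the 8. Col14a1 and Col16a1 are fibril-associated collagens, neither fibrillar nor microfibrillar themselves.

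The chains of collagen I, which make up most of bone and tendon, behaved otherwise. Col1a1 read 7874, 6859.6, 5744, 7026 and 5648 CPM at 1-day and 6123, 6195, 6109, 7586 and 8709.5 CPM at 1-week, and the libraries overlapped (log2 0.059 ± 0.13, adjusted p = 0.872). The difference of Col1a2 was -0.0037 ± 0.12 (adjusted p = 0.992). The list stood above the contralateral joint already at 1-day for 3 of the 12 genes, where 1.68% of all genes were called higher, and for 10 at 1-week, where 3.33% were. Over all 44 collagen genes, gathered by symbol after results were known, 12 rose and 1 fell. The exception was Col19a1 (log2 -1.44 ± 0.30, adjusted p = 0.00179).

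Small leucine-rich proteoglycans, which coat collagen fibrils, rose in 8 of 11 cases (median log2 0.767) and fell in 0, again with 8 calls in all alternatives. Kera, keratocan, went from 15.8, 12.1, 9.47, 14.7 and 20.2 CPM to 66.3, 47.8, 70.7, 63.8 and 44.9 CPM (4.05-fold, log2 2.02 ± 0.19, adjusted p = 6.34e-09). Aspn, asporin, which binds TGF-beta, went from 63.2, 56.9, 57.4, 58.5 and 63.9 CPM to 224, 219.8, 356, 233 and 175 CPM (4.01-fold, log2 2.00 ± 0.12, adjusted p = 1.06e-12). Neither gene had overlapping groups, and 1-week replicate 3 was the highest library of both. Prelp (1.25 ± 0.10), Ogn (1.06 ± 0.12), Fmod (0.79 ± 0.12), Lum (0.77 ± 0.11), Bgn (0.72 ± 0.089) and Dcn (0.67 ± 0.076) completed the 8 on the log2 scale. Of these Fmod, Lum, Bgn and Dcn lie outside the rule for named genes and are given to complete the count. Chad, made mainly by chondrocytes, differed by 0.16 ± 0.15 (adjusted p = 0.644), and Omd, made by osteoblasts, by -0.033 ± 0.10 (0.912).

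Markers of activated fibroblasts rose in 6 of 16 cases (median log2 0.35) and fell in 0. Lrrc15, a membrane protein of fibroblasts exposed to TGF-beta, read 6.55, 4.43, 5.44, 4.72 and 5.54 CPM at 1-day and 24.9, 34.1, 41.7, 27.9 and 25.6 CPM at 1-week. The groups did not overlap, and the rise was 5.76-fold (log2 2.53 ± 0.16, adjusted p = 3.77e-12). Fbn2, the fibrillin of developing tissue, rose 4.16-fold from 3.0–6.11 to 12.9–32.8 CPM, with replicate 3 highest at 1-week. Cthrc1 (log2 1.19 ± 0.13), Thbs2 (1.14 ± 0.12), Postn (0.99 ± 0.13) and Fn1 (0.88 ± 0.11), all secreted by fibroblasts in healing wounds, were called as well, the last 2 being outside the naming rule. Sparc, abundant in bone as well as in scar, differed by 0.031 ± 0.087 (adjusted p = 0.903) and Spp1, osteopontin, by -0.20 ± 0.11 (0.358).

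Basement membranes surround muscle fibres, vessels and nerves, and 4 of their 13 genes rose, with 0 falling and a median log2 difference of 0.45. These were Col4a5 (1.45 ± 0.17), Col15a1 (1.14 ± 0.089), Lamb1 (0.96 ± 0.077) and Nid1 (0.63 ± 0.086). Of 16 genes for collagen processing and crosslinking 3 rose (median log2 0.222). P4ha3, a subunit of collagen prolyl hydroxylase, rose 2.69-fold from 10.2–15.1 to 27.9–41.8 CPM (adjusted p = 9.02e-09), and it was above the contralateral joint at both times (log2 1.24 ± 0.16 and 3.05 ± 0.18). Loxl2, a lysyl oxidase that crosslinks collagen, rose 2.58-fold (adjusted p = 7.44e-11). P4ha2, its difference of 0.62 ± 0.12 just past the threshold, was not called without 1-week replicate 3 (log2 0.48), without 1-day replicate 3 (0.57) or without both muscle-rich libraries (0.48).

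Tendon and ligament genes were called higher in 4 of 10 cases (median log2 0.511). Tnmd, tenomodulin, a membrane protein of mature tendon cells, read 24.5, 18.9, 18.7, 24.3 and 38.8 CPM at 1-day and 79.5, 71.6, 119.7, 88.7 and 63.0 CPM at 1-week. All 1-week libraries were above all 1-day libraries (3.37-fold, log2 1.75 ± 0.17, adjusted p = 2.01e-08). Comp, a pentameric matrix protein of tendon and cartilage, rose 2.05-fold (log2 1.03 ± 0.13, adjusted p = 1.84e-06). The other two were Cilp2 (0.72 ± 0.19), not called without 1-day replicate 3 (log2 0.56), and Egr1, described with the immediate early genes.

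The insulin-like growth factor system, which promotes growth of muscle, cartilage and bone, had 5 of 10 genes higher and 0 lower (median log2 0.64). Igf1, the main ligand, went from 97.1, 104, 92.1, 91.3 and 100 CPM to 209, 216, 266, 222 and 189.9 CPM. The 2 groups were far apart (2.27-fold, log2 1.18 ± 0.071, adjusted p = 8.26e-13), and Igf1 was above the contralateral joint at 1-day (log2 0.36 ± 0.072, adjusted p = 0.00133), short of the 1.5-fold threshold, and at 1-week (1.49 ± 0.078). Igf2, the fetal ligand, rose 1.94-fold (adjusted p = 3.44e-07) and H19, the noncoding RNA beside it, 1.85-fold (adjusted p = 4.98e-06). Of the binding proteins, Igfbp6 rose 2.73-fold (adjusted p = 1.08e-06) and Igfbp3, named after its values were seen, 1.61-fold. Igfbp5 stopped just short of the fold threshold at 1.49-fold (log2 0.57 ± 0.10, adjusted p = 0.00036), and it was called without 1-day replicate 5 (log2 0.70), without 1-week replicate 2, 4 or 5, without the 2 muscle-rich libraries and with housekeeping scaling.

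Wnt receptors and antagonists rose in 5 of 16 cases and fell in 0 (median log2 0.369). The first 3 were secreted antagonists or modulators of Wnt ligands. Dkk3 went from 19–22.5 to 59.0–99.2 CPM (3.44-fold, adjusted p = 1.06e-12). Sfrp2, which binds Wnt ligands, went from 12.1–17.2 to 39.9–45.9 CPM (2.77-fold, adjusted p = 4.92e-10). Dkk2, which blocks Wnt co-receptors, went from 5.82–12.4 to 19.7–25.3 CPM (2.47-fold, adjusted p = 2.78e-08). Fzd2, a receptor, rose 1.91-fold, and Sfrp4, outside the naming rule, was called at log2 0.59 ± 0.12.

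TGF-beta and BMP genes moved the other way in the 3 of 18 that were called, all lower, while the median of the list was -0.0622. Nog, noggin, which blocks BMPs, fell from 4.20–10.3 to 1.40–2.52 CPM (log2 -1.64 ± 0.22, adjusted p = 3.65e-06). Ltbp2, which sits on microfibrils, fell from 27.2–42.1 to 12.2–20.0 CPM (log2 -0.94 ± 0.12, adjusted p = 2.95e-06). Inhba, a subunit of activin, was at -0.60 ± 0.12. Its call was lost in 5 of 20 alternatives, among them without 1-day replicate 2 (log2 -0.45) or replicate 3 (-0.58) and without 1-week replicate 1 (-0.53). Without 1-week replicate 2 the list had 5 calls, 4 lower and 1 higher, and without the 2 muscle-rich libraries 3 lower and 1 higher. Tgfb3 differed by 0.47 ± 0.089 (adjusted p = 0.000589), below the fold threshold, with no overlap of the groups.

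Among proteases that cut matrix, 3 of 16 rose and 0 fell (median log2 0.109): Mmp2 (gelatinase A, 2.25-fold, adjusted p = 7.7e-11), Mmp14 (the membrane protease that activates it, 1.69-fold, adjusted p = 7.07e-08) and Adamts12 (1.81-fold, adjusted p = 0.000165). Without 1-week replicate 4 this list had 5 calls, 3 higher and 2 lower, and without the 2 muscle-rich libraries 3 higher and 1 lower. The inhibitors split, with 1 of 14 higher and 3 lower. Timp2, which takes part in activating Mmp2, went from 242, 234, 209, 254 and 236 CPM to 466, 435, 487, 458 and 442 CPM. That rise was 1.94-fold with little spread (log2 0.96 ± 0.057, adjusted p = 8.26e-13). Timp1, the injury-inducible inhibitor, went from 67.6, 95.7, 64.2, 70.9 and 63.9 CPM to 27.9, 31.0, 37.4, 33.1 and 31.7 CPM.

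The Timp1 groups were also apart, in the opposite direction (log2 -1.17 ± 0.12, adjusted p = 8.16e-08), and at 1-week Timp1 was still above the contralateral joint (log2 1.27 ± 0.15, after 2.21 ± 0.14 at 1-day). Serpina3n, an acute-phase protease inhibitor, fell 1.54-fold (log2 -0.62 ± 0.12) and was not called without 1-day replicate 2 (log2 -0.48).

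Large falls were seen in genes that stood high at 1-day in every injured library. Rrad (chr8:104628070-104631350), a small GTPase of muscle that restrains calcium channels, read 38.5, 88.5, 75.0, 54.4 and 116 CPM at 1-day and 5.95, 5.15, 3.82, 4.29 and 3.64 CPM at 1-week. The 1-day libraries varied among themselves, yet the lowest was far above the highest 1-week library (log2 -4.04 ± 0.23, 16.4-fold lower, adjusted p = 5.26e-13). Ankrd1 (chr19:36111965-36119844), a muscle protein that responds to stretch and damage, read 149, 526, 301, 283 and 567 CPM at 1-day and 31.6, 28.7, 48.5, 30.3 and 24.9 CPM at 1-week (11.1-fold lower, adjusted p = 5.07e-10). Card14 (chr11:119307093-119345379), a scaffold of NF-kB signalling, read 4.40, 13.7, 12.3, 8.02 and 15.5 CPM at 1-day and 0.732, 1.06, 1.13, 1.58 and 0.885 CPM at 1-week (9.96-fold lower, adjusted p = 8.45e-10). For all 3, 1-day replicate 5, a muscle-rich library, was the highest and replicate 1 the lowest. Fam179a went from 2.74–5.09 to 0.366–0.885 CPM (5.66-fold lower), and at 1-week it lay below the contralateral joint (log2 -1.37 ± 0.37, adjusted p = 0.0169).

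Set beside the opposite knee, Rrad was high at 1-day and not distinguishable at 1-week. At 1-day it stood above the contralateral joint by log2 4.00 ± 0.23, and at 1-week the difference was -0.12 ± 0.33 (adjusted p = 0.898). Card14 had a 1-week difference of 0.42 ± 0.46 (adjusted p = 0.692) after 3.35 ± 0.28 at 1-day, and Ankrd1 one of 0.82 ± 0.33 (0.155) after 3.58 ± 0.29.

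Muscle atrophy genes fell in 3 of 10 cases and rose in 0 (median log2 -0.194). Trim63, a ubiquitin ligase that marks muscle proteins for breakdown, read 130.1, 261, 179, 199 and 451 CPM at 1-day and 53.0, 52.8, 75.1, 39.1 and 45.4 CPM at 1-week. The groups did not overlap, although 1-day replicate 5 was far above the rest (4.61-fold lower, log2 -2.20 ± 0.23, adjusted p = 5.55e-08). Fbxo32, the second such ligase, fell 3.56-fold (adjusted p = 1.09e-06) and Eda2r, a TNF receptor family member of wasting muscle, 4.75-fold (adjusted p = 1.18e-08). Small heat shock proteins of muscle were the 3 called members among 13 chaperones, all lower (median log2 -0.195): Hspb1 (3.15-fold), Hspb7 (3.03-fold) and Cryab (1.95-fold).

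In the list for muscle regeneration and denervation 2 of 17 genes rose and 5 fell (median log2 -0.26). Without 1-day replicate 5 these counts were 3 and 3. The first count was 1 without 1-day replicate 1, 2, 3 or 4 or 1-week replicate 3 or 5, and 0 with DESeq2. Lower were Ankrd1, Ankrd2 (log2 -1.45 ± 0.17), the myogenic factors Myod1 (-0.88 ± 0.17) and Myf6 (-0.70 ± 0.17), and Chrna1 (-0.59 ± 0.17), a subunit of the acetylcholine receptor. Higher were Tmem8c, which fuses myoblasts, on 5 and 36 reads (log2 2.76 ± 0.63, adjusted p = 0.004), and Actc1, an embryonic actin (0.69 ± 0.22). Myf6, Chrna1 and Actc1 fall outside the naming rule. Casq1 (log2 0.74 ± 0.14) was the called one of 15 fast-muscle genes and Casq2 (0.82 ± 0.15) of 10 slow-muscle genes, calsequestrins that store calcium in fibres. Without 1-day replicate 5, a second fast-muscle gene was called, also higher.

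Some chemokines of monocytes and neutrophils fell. Of 15 CC chemokines and receptors 4 were lower and 1 higher (median log2 -0.319, against -0.316 with 0 calls in contralateral joints). Of 13 CXC genes 4 were again lower and 1 higher (median -0.689, against -0.0292 with 0 calls in contralateral joints). The CXC median was -0.0188 without 1-day replicate 3 and -0.355 with edgeR's own filter on low counts. Without the 2 muscle-rich libraries each list had 3 lower, and the CXC list also had 3 when 1 library was left out, except 1-day replicate 1 or 5. Ccl2 (chr11:82035577-82037452), the main monocyte attractant, read 10.7, 13.1, 8.63, 11 and 9.99 CPM at 1-day and 0.549, 0.528, 1.13, 0.559 and 0.689 CPM at 1-week. The separation was wide in every pair of libraries (15-fold lower, log2 -3.90 ± 0.29, adjusted p = 7.44e-11). Ccl7 (chr11:82045712-82047525), its neighbour on the chromosome, read 10.9, 16.9, 10.4, 11.5 and 12.3 CPM and then 0.732, 1.58, 0.695, 0.47 and 1.48 CPM (13-fold lower, adjusted p = 3.44e-10). Ccl12, from the same gene cluster and named after its values were seen, was lower (log2 -2.25 ± 0.56), on under 2 CPM in each library.

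Ccl21a, a lymphatic chemokine, was the CC gene that rose (1.83-fold, adjusted p = 0.000829). Its near-identical copies make the counting of its reads uncertain. Neutrophil attractants Cxcl5 (from 4.22–8.06 to 1.06–2.20 CPM, adjusted p = 1.72e-06) and Cxcl1 (from 1.56–3.54 to 0.492–1.10 CPM, adjusted p = 0.000619) both fell. Cxcl14 fell less, 1.65-fold. Cxcl13, the B-cell chemokine and outside the naming rule, was called lower on under 2 CPM (log2 -3.07 ± 0.98, adjusted p = 0.0473). The one CXC gene higher was Ackr3, a scavenging receptor (1.79-fold, adjusted p = 5e-07).

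Inflammatory cytokines and their receptors fell in 4 of 15 cases and rose in 0 (median log2 -0.279). Il4ra, a receptor chain for interleukins 4 and 13, went from 38.8, 56.6, 41.5, 46.0 and 44.9 CPM to 21.1, 22.2, 20.1, 21.4 and 22.3 CPM. The groups did not overlap and the 1-week libraries varied little (2.14-fold lower, log2 -1.10 ± 0.10, adjusted p = 2.71e-09). Il11 fell 2.60-fold (adjusted p = 0.0012) and Lif 1.70-fold (0.00618), both ligands that signal through gp130. Il6, the best known of these, rested on 72 and 18 reads (log2 -1.86 ± 0.50, adjusted p = 0.0158) and was not called without 1-day replicate 2 (adjusted p = 0.0593). Il1b (0.33 ± 0.13, adjusted p = 0.126) and Tnf (-0.21 ± 0.17, 0.573) did not pass.

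Of 16 macrophage markers 1 was called higher and 1 lower. Gpnmb, a lysosomal protein of macrophages, rose 2.50-fold (adjusted p = 9.04e-08), and the summed level of the list was 2230 to 2733 CPM at 1-day and 2427 to 2919 at 1-week.

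Acute-phase and metal-binding genes fell in 4 of 12 cases and rose in 0 (median log2 -0.436). Mt2 (chr8:94172618-94173567), a metallothionein that binds zinc and is induced by stress hormones, read 274, 617, 361, 392 and 601 CPM at 1-day and 62.6, 70.9, 57.3, 79.6 and 69.7 CPM at 1-week. Every 1-day library was well above every 1-week library (6.64-fold lower, log2 -2.73 ± 0.18, adjusted p = 4.46e-12). Mt1, its neighbour (chr8:94178883-94180327), fell 3.01-fold (adjusted p = 4.13e-10), and the zinc importer Slc39a14 1.87-fold (adjusted p = 3.44e-07). Saa3, a serum amyloid of macrophages and fat, was low, 87 and 19 reads, with overlapping groups (log2 -2.07 ± 0.48, adjusted p = 0.00462). Mt2 was still above the contralateral joint at 1-week (log2 0.80 ± 0.20, adjusted p = 0.00846).

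The 250 bases before the start of Mt2 and of Cxcl1 are printed as examples of promoters of an acute-phase gene and a chemokine that fell together, from RefSeq's start sites on GRCm38.p6, both on the plus strand, at chr8:94172368-94172617 and chr5:90890995-90891244. Capitals mark matches, on either strand, to the metal response element (TGCACNC or TGCGCNC, the 2 spellings not overlapping) in Mt2, 3 matches, and to the NF-kB consensus in Cxcl1, 2 matches that overlap.
Mt2: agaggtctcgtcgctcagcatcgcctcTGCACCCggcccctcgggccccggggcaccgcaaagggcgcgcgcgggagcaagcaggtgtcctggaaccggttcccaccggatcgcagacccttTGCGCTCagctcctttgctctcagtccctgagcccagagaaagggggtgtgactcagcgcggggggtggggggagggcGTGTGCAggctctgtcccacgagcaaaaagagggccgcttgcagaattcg
Cxcl1: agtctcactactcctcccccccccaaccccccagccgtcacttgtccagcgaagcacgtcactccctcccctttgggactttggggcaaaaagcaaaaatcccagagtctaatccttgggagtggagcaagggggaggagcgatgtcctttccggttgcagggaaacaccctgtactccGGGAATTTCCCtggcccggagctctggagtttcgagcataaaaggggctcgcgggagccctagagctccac
The first motif was in 7032 of 32851 RefSeq promoters of this length (21.4%), in 97 of the 308 called higher that had an entry (31.5%) and in 33 of 127 called lower (26.0%). The second was in 1281 of all (3.90%), in 19 called higher (6.17%) and in 10 called lower (7.87%). The 32851 promoters outnumber the 17105 genes tested, so the full set and the called genes have unlike bases. Whether called genes carry either motif more often than other tested genes was not tested. Matches describe letters only.

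Glucocorticoid-responsive genes had 2 of 12 lower and 0 higher (median log2 -0.0494), and without the 2 muscle-rich libraries 3 lower and a median of 0.0868. Pdk4, a kinase that turns off glucose oxidation in fasting muscle, fell from 223–366 to 46.1–192 CPM (2.39-fold lower, adjusted p = 0.00525). Tsc22d3, a direct target of the hormone, was 1.64-fold lower and lost its call without 1-day replicate 5 (log2 -0.54).

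Contralateral joints of the injured mice were compared over the same interval. In them 28 of 17105 genes (0.164%) were called, 15 higher (0.0877%) and 13 lower (0.0760%). That count was unsteady: 18 without 1-day contralateral replicate 3, 17 without replicate 5, and 15 without 1-week contralateral replicate 1 or replicate 2. The change in injured joints minus the change in contralateral joints was called for 280 genes (1.64%), 223 with a positive (1.30%) and 57 with a negative difference (0.333%). The negative count was 86 with the replicate number as a block and 37 in a fit of all 70 libraries.

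The largest positive differences of change among genes over 1 CPM were in Agtr2 (log2 5.37 ± 0.90, adjusted p = 0.000289), C1qtnf3 (4.08 ± 0.39, 3.35e-08), Angptl1 (3.44 ± 0.23, 4.88e-11) and Pla2g2a (3.35 ± 0.64, 0.00176). The largest negative ones were in Rrad (-4.13 ± 0.42, 1.5e-07), Catsper4 (-3.06 ± 0.68, 0.00859), Ccl2 (-3.02 ± 0.71, 0.0147) and Card14 (-2.92 ± 0.59, 0.00349). Catsper4, a sperm calcium channel subunit, rested on 80 and 13 reads in injured joints. Ccl2 did not pass without 1-week contralateral replicate 2 (adjusted p = 0.0792) or replicate 3 (0.141). Col14a1 had a difference of change of 2.60 ± 0.14 and Mt2 of -2.36 ± 0.26, and all of Timp2 (0.95 ± 0.084), Igf1 (1.12 ± 0.10) and Il4ra (-1.11 ± 0.15) passed too.

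**Figure D3:**
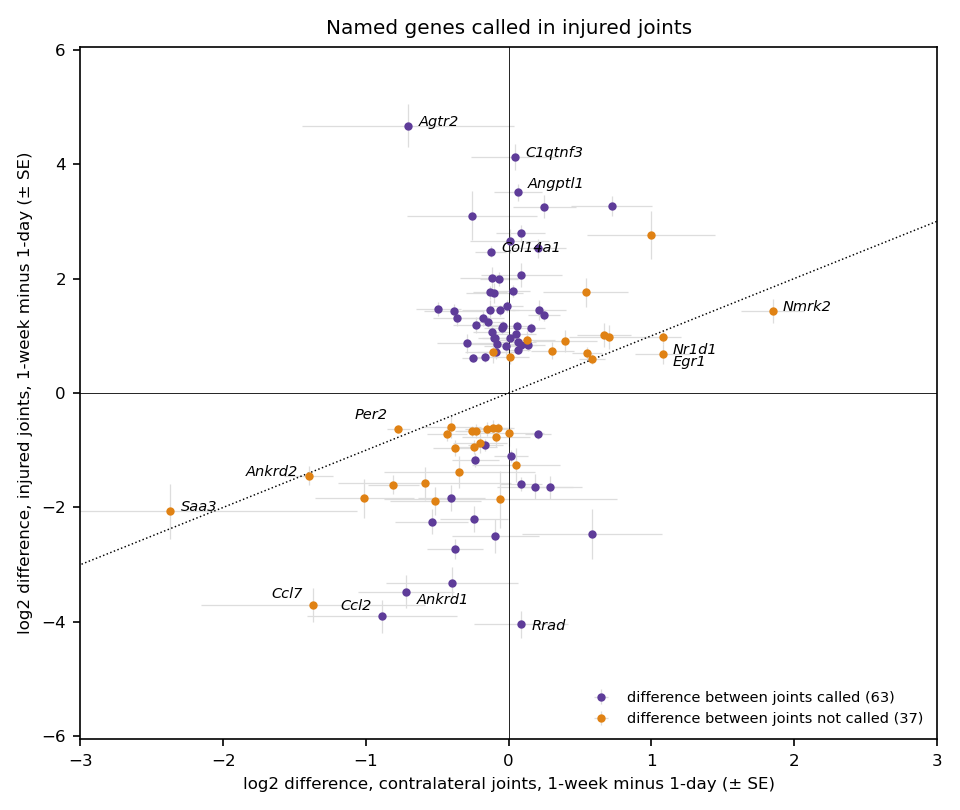
Each point is 1 of 100 named genes called in injured joints and over 1 CPM, with the log2 difference between 1-week and 1-day in contralateral joints on the x axis and in injured joints on the y axis, bars for SE and a dotted line of equal change. The difference between joints was called for 63 (purple) and not for 37 (orange), among them Nr1d1, Per2, Ankrd2 and Nmrk2 near the dotted line.

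Clock genes moved in both knees. In injured joints 4 of 16 were called higher and 1 lower (median log2 -0.0312), and in contralateral joints 1 and 2. Without the 2 muscle-rich libraries 3 were higher and 0 lower in injured joints, and 3 and 2 without 1-day replicate 3 or 1-week replicate 3. Nr1d1, a repressor of the core loop, read 48.6, 56.7, 37.7, 44.0 and 64.0 CPM at 1-day and 122, 97.2, 112, 73.8 and 90.3 CPM at 1-week in injured joints. In contralateral joints it read 62.5, 56.6, 54.1, 49.1 and 48.6 CPM and 133, 113, 100.4 and 111 CPM. Groups were apart in both knees, at log2 0.98 ± 0.12 and 1.08 ± 0.13, and the difference of change was -0.10 ± 0.18 (adjusted p = 0.951).

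Per2, a core repressor, read 27.0, 25.1, 23.8, 24.3 and 28.6 CPM at 1-day and 16.3, 15.6, 16.1, 17.1 and 18.4 CPM at 1-week. It fell in injured joints (log2 -0.63 ± 0.076, adjusted p = 7.74e-07) and in contralateral joints (-0.77 ± 0.082, 9.44e-06), with a difference of change of 0.14 ± 0.11, and at 0-day its mean was 17.1 CPM. Without the 2 muscle-rich libraries the Per2 difference in injured joints was -0.58, short of the threshold. Npas2 (log2 0.98 ± 0.21), Bhlhe41 (0.75 ± 0.17, named after its values were seen) and Arntl (0.60 ± 0.087) were the other called members. Arntl, a core activator, was at 0.58 ± 0.092 in contralateral joints, and in injured joints it lost its call without 1-day replicate 3 (log2 0.56), 1-week replicate 3 (0.55) or both muscle-rich libraries (0.58). The hour of collection is not in the labels, so hour and time after injury cannot be told apart.

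Immediate early genes, transcription factors and phosphatases that respond within minutes to stimulation and to handling of tissue, were called higher in 5 of 16 cases (median log2 0.162) and, in contralateral joints, in 2. These were Fosb (1.76 ± 0.25), Atf3 (0.91 ± 0.20), Nr4a1 (0.72 ± 0.13), Dusp1 (0.70 ± 0.10) and Egr1 (0.68 ± 0.18). Egr1 had overlapping groups and was not called without 1-week replicate 1 (adjusted p = 0.0589) or replicate 2 (0.0612). In contralateral joints it differed by 1.08 ± 0.19 (adjusted p = 0.0072) and Dusp1 by 0.55 ± 0.10 (0.0129). A fit of all 70 libraries of the batch kept 1 of the 5 calls.

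Muscle genes were measured in both knees too. Ankrd2, a stretch-responsive relative of Ankrd1, changed by log2 -1.45 ± 0.17 in injured and -1.40 ± 0.17 in contralateral joints (difference of change -0.051 ± 0.24), and its contralateral mean at 1-day was 69.0 CPM against 26.1 at 0-day. Nmrk2, a muscle kinase for NAD synthesis, rose by 1.43 ± 0.21 and 1.85 ± 0.22 (difference -0.43 ± 0.30). Hspb7 changed by log2 -1.60 ± 0.17 and -0.81 ± 0.18, a difference of change of -0.79 ± 0.24 that missed the threshold (adjusted p = 0.0961).

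Of 14 genes for hypertrophic cartilage and bone formation, 3 were called, all lower (median log2 -0.359), or 2 without the 2 muscle-rich libraries. Alpl, the alkaline phosphatase of mineralizing cells, went from 123, 106, 88.6, 109 and 88.5 CPM to 54.0, 56.4, 51.9, 82.0 and 81.6 CPM. The groups did not overlap, and 1-week replicates 4 and 5 were the highest of their group (log2 -0.66 ± 0.12, adjusted p = 0.000375). Panx3, a channel of osteoblasts and hypertrophic chondrocytes, sat at the threshold (log2 -0.70 ± 0.23, adjusted p = 0.05) and lost its call in 13 of 20 alternatives. Bglap, osteocalcin, differed by -0.47 ± 0.12 (adjusted p = 0.0121) and Ibsp by -0.46 ± 0.12 (0.0116), below 1.5-fold. Among 12 osteoclast genes 1 was called, Tnfrsf11a, the receptor RANK, which was lower (log2 -0.67 ± 0.10, adjusted p = 2.78e-05).

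Of 17 genes for endothelium and angiogenesis 2 were lower (median log2 -0.0254), the leukocyte adhesion molecules Selp (-0.62 ± 0.088, adjusted p = 1.12e-05) and Sele (-0.59 ± 0.19, 0.0477). Selp was not called without 1-day replicate 2 (log2 -0.57) and Sele in 12 of 20 alternatives, so that the list had 0 calls without 1-day replicate 2 and with housekeeping scaling, and 1 or 2 in the other alternatives. Single calls in further lists were Thy1 (log2 0.84 ± 0.10), in the T-cell list but also made by fibroblasts, C1s1 (0.61 ± 0.069), a complement protease not called without 1-day replicate 2 or 1-week replicate 3 (0.58 each), and Retn (1.01 ± 0.21), an adipokine.

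Some lists held no call. In 18 of 48 lists edgeR's test called 0 genes, and so did DESeq2. As 3.54% of all genes tested were called, a short list can hold 0 calls without differing from the rest. Of the 233 genes in these lists, 42 had an unadjusted p below 0.05 and 17 an adjusted p below 0.05 with a fold under 1.5. Over all 17105 genes tested, 3366 had an unadjusted p below 0.05, and 8.68% an adjusted p below 0.05 at any fold. In the glycolysis list 1 gene was called higher without 1-day replicate 5 or 1-week replicate 4 and with housekeeping scaling, and 1 of the antioxidant list lower without 1-day replicate 1. Genes of cell division were among the flattest: all 18 mitosis genes lay between log2 -0.11 and 0.08 (0 at unadjusted p below 0.05) and 14 DNA replication genes between -0.17 and 0.01 (3). The mitosis genes summed to 4227 to 5579 CPM at 1-day and 4109 to 5046 at 1-week, against 4422 to 5055 in joints at 0-day. The cells that gave this level were not tested, so division of fibroblasts could go unseen in it. The 19 cartilage matrix genes had a median of -0.16 (3), and Col2a1, the collagen of cartilage, read 1465, 1272, 876, 1651 and 1162 CPM at 1-day and 626, 939, 897, 1499 and 1987 CPM at 1-week, with the groups overlapping.

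Lists for blood lineages and other cells had small medians. The 14 marrow neutrophil genes had a median of 0.0512 (2 at unadjusted p below 0.05), 10 B-cell genes -0.11 (2), 9 mast-cell genes 0.0132 (2), 8 erythroid genes -0.0272 (0) and 11 nerve genes -0.0677 (1). For 14 interferon-stimulated genes the median was -0.0559 (2), or 0.157 without 1-day replicate 3, and for 10 antigen presentation genes 0.0755 (0). In metabolism, 17 respiratory chain genes had a median of -0.0273 (0), 16 glycolysis genes 0.0285 (5), 14 fatty acid oxidation genes -0.155 (3) and 13 antioxidant genes -0.246 (8). The 17 genes for folding and secretion in the endoplasmic reticulum, the route of secreted collagen, had a median of -0.0847 (7).

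**Figure D4:**
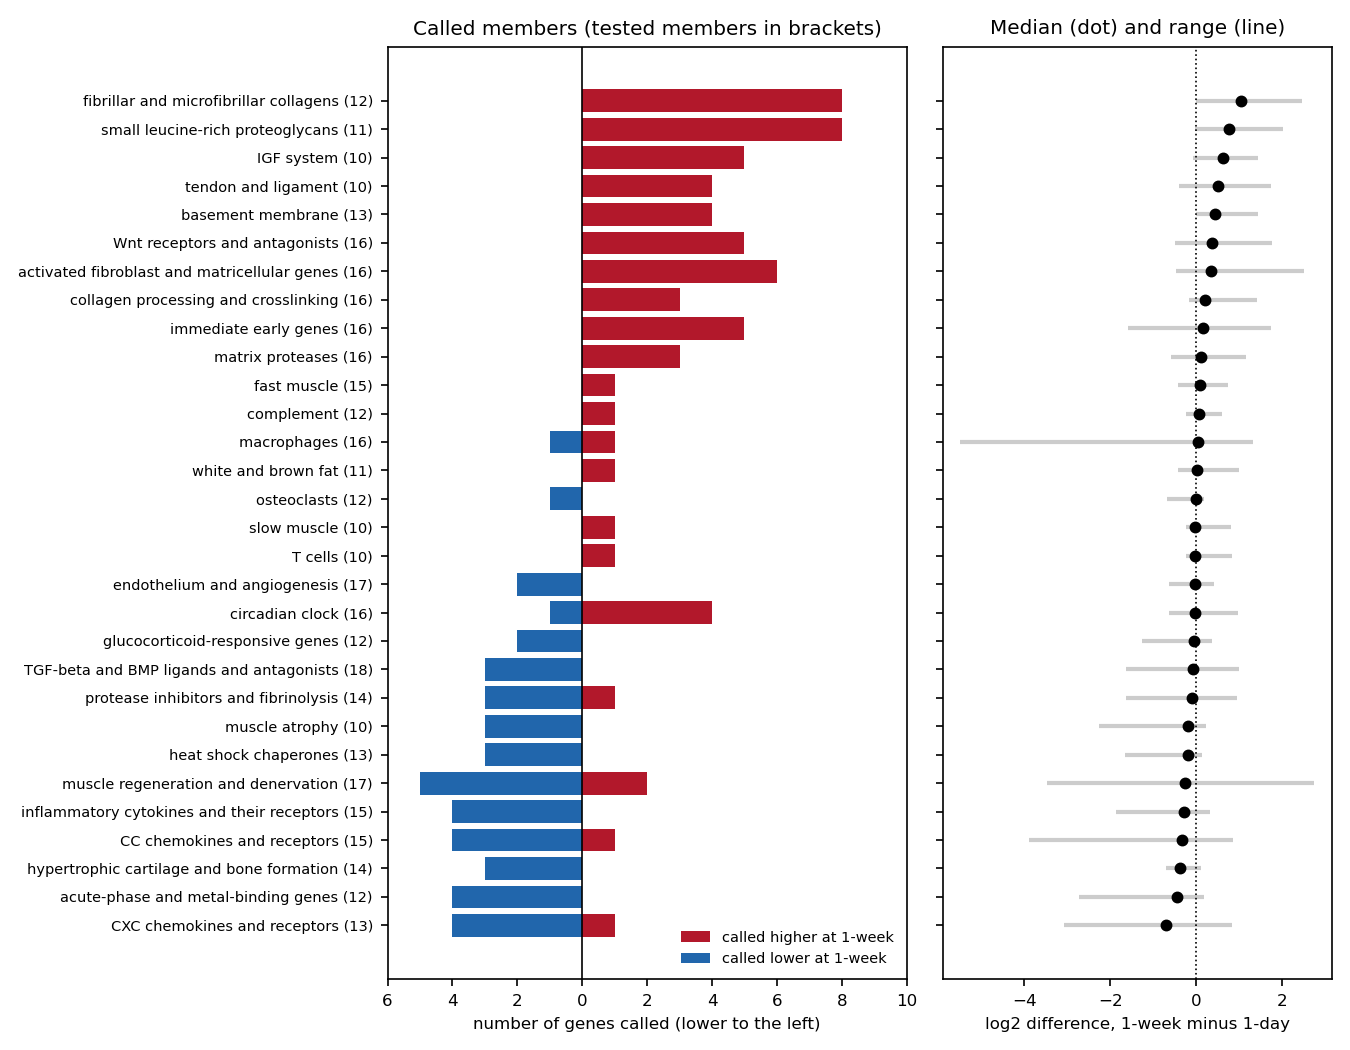
For the 30 lists with a called gene, the left panel counts members called higher (red) and lower (blue, to the left) at 1-week and the right panel gives the median log2 difference as a dot and the range as a line, with the median of all genes dotted. Collagens and small leucine-rich proteoglycans lie at the top with 8 higher each, and CXC chemokines at the bottom with a median of -0.689, which was -0.0188 without 1-day replicate 3.

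The same interval was tested in the other strains, with 731 of 17270 genes called in C57BL/6 (4.23%) and 2343 in STR/ort (13.6%). The MRL/MpJ change minus the C57BL/6 change was called for 594 genes (3.44%), 452 positive (2.62%) and 142 negative (0.822%), and the MRL/MpJ change minus the STR/ort change for 1300 (7.53%), 417 positive (2.41%) and 883 negative (5.11%). Both differences use the same MRL/MpJ libraries. Against C57BL/6 the negative count was 94 without 1-day MRL/MpJ replicate 3, 220 without 1-day C57BL/6 replicate 2 and 256 with housekeeping scaling. Of the 12 collagens, 6 had a more positive change in MRL/MpJ than in C57BL/6 and 0 a more negative one, while 0 and 10 did against STR/ort. For the 11 small leucine-rich proteoglycans these counts were 7 and 0 against C57BL/6 and 0 and 6 against STR/ort.

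Levels also differed between the strains at 1-day. Col3a1 went from a mean of 1559.8 to 5291 CPM in MRL/MpJ, from 6298 to 6745 in C57BL/6 and from 3744 to 19552 in STR/ort. Among uninjured joints, the paper reports the lowest expression of this collagen in MRL/MpJ. Uninjured joints of the other strains were not compared here, so how much of the gap at 1-day preceded the injury was not tested. The MRL/MpJ change of Col3a1 exceeded that of C57BL/6 by log2 1.63 ± 0.22 (adjusted p = 1.1e-05) and fell short of that of STR/ort (-0.66 ± 0.21, 0.0362). Col14a1 went from 30.5 to 170.4 CPM in MRL/MpJ, 182 to 206 in C57BL/6 and 63.5 to 358 in STR/ort. Its differences of change were 2.28 ± 0.19 (3.13e-09) and -0.05 ± 0.19 (0.907).

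Some genes went opposite ways. Sfrp2 rose in MRL/MpJ and went from 116 to 54.3 CPM in C57BL/6 (log2 -1.08 ± 0.13), a difference of change of 2.54 ± 0.19 (adjusted p = 3.06e-10). Gpnmb went from 49.2 to 21.8 CPM in C57BL/6 and from 8.12 to 20.4 in MRL/MpJ, a difference of 2.47 ± 0.22 (6.09e-09). Of the 16 macrophage markers, 12 had a more positive change in MRL/MpJ than in C57BL/6 and 12 fell in C57BL/6 itself, where 2.48% of all genes did. Against STR/ort 0 were more positive and 1 more negative.

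By the rule for the largest differences, C1qtnf2 (2.91 ± 0.25), Trhde (2.93 ± 0.52) and Nmrk2 (3.14 ± 0.42) changed most positively against C57BL/6, and Pdk4 (-3.83 ± 0.43), Lama1 (-3.54 ± 0.72) and Ankrd1 (-2.85 ± 0.56) most negatively. Pdk4 rose in C57BL/6 from 77.7 to 455 CPM (log2 2.56 ± 0.31). Against STR/ort the positive ones were Ighv1-42 (4.69 ± 1.58), Cd163l1 (3.68 ± 1.03) and Fosb (3.60 ± 0.92), and the negative ones Brinp3 (-3.04 ± 0.92), Greb1 (-2.94 ± 0.48) and Syt17 (-2.91 ± 0.84). Reads in the 5 MRL/MpJ libraries at 1-day and at 1-week were 13 and 48 for Trhde, 78 and 20 for Lama1, 19 and 23 for Cd163l1, 16 and 37 for Brinp3, 51 and 47 for Greb1 and 10 and 8 for Syt17. Ighv1-42, an antibody gene segment with 31 and 125 reads, rested on 1-week MRL/MpJ replicate 5, without which the difference was 2.65 (adjusted p = 0.109). Its call was also lost without 1-day MRL/MpJ replicate 1, 4 or 5, without 1-day STR/ort replicate 2, 4 or 5 and without 1-week STR/ort replicate 1, 2, 4 or 5, with differences from 4.25 to 4.96. Without 1-day STR/ort replicate 5 the difference for Fosb was 2.03, still called. Brinp3 lost its call without 1-day MRL/MpJ replicate 4 (adjusted p = 0.0723) or 5 (0.0823), and Syt17 without 1-day MRL/MpJ replicate 1 (0.0846).

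Genes that fell most in MRL/MpJ compared unevenly with the other strains. For Rrad the difference of change was -2.29 ± 0.47 against C57BL/6 (adjusted p = 0.00241) and -1.48 ± 0.44 against STR/ort (0.0225). For Mt2 it was -1.22 ± 0.39 (0.0545), short of the threshold, and -1.88 ± 0.39 (0.00114). Ccl2 differed by -0.83 ± 0.43 (0.272) and -1.25 ± 0.35 (0.0137). Among the genes that rose most, the difference of change for Angptl1 was 2.45 ± 0.27 (3.69e-07) and -0.90 ± 0.28 (0.0259), and for C1qtnf3 0.83 ± 0.43 (0.273) and -1.84 ± 0.44 (0.00437).

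**Figure D5:**
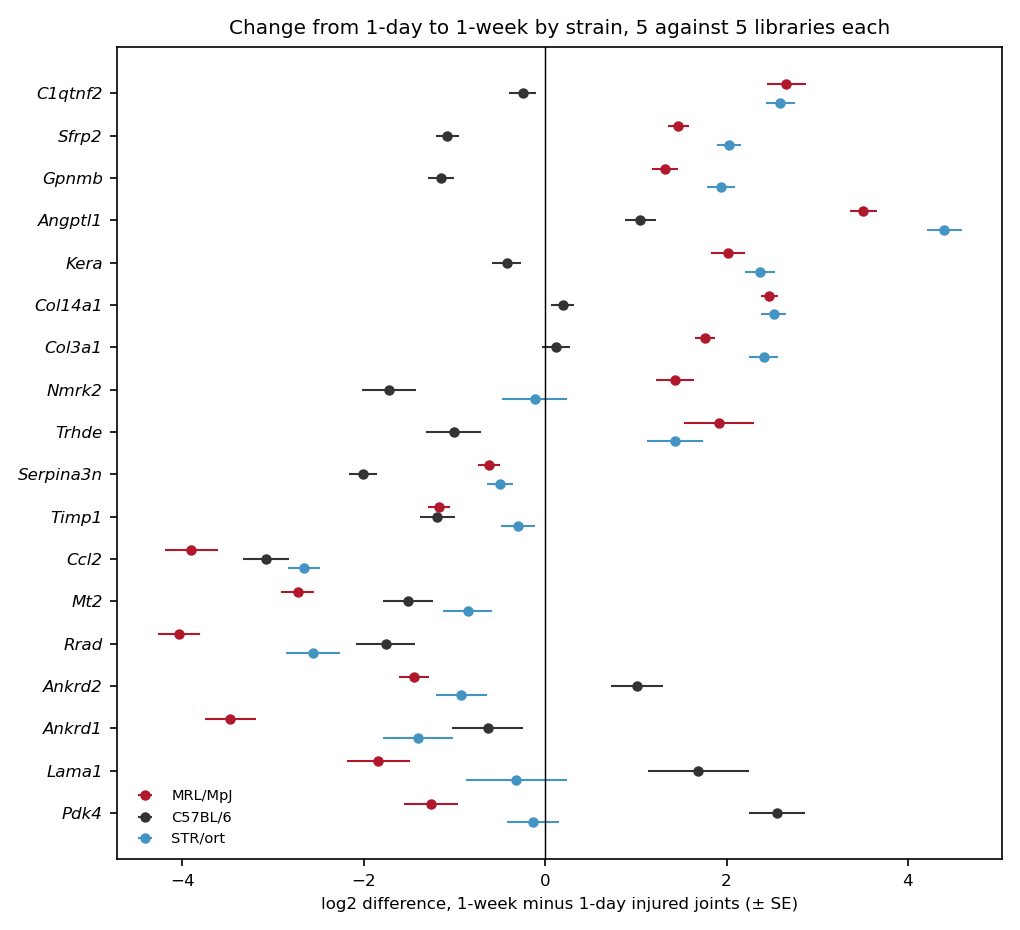
The x axis gives the log2 difference between 1-week and 1-day injured joints with its SE, from 5 against 5 libraries, for 18 genes in MRL/MpJ (red), C57BL/6 (black) and STR/ort (blue). C1qtnf2, Sfrp2 and Gpnmb lie to the right in MRL/MpJ and STR/ort and to the left in C57BL/6, and Pdk4 lies to the right in C57BL/6.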

How the data were processed

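RNA from whole knee joints was sequenced after poly(A) selection. Per the labels and the study's methods, the authors aligned reads to mm10 with TopHat2 (version 2.0.11), counted them on RefSeq genes with featureCounts and deposited whole-number counts, treated here as not normalized. Strand use in counting is not given in the sources used here. No gene in the table reaches 2 counts in fewer than 5 libraries. Of 17313 entries, 3 repeats were dropped, and for 24 genes the symbol appears as a date. Genes that reached 2 counts in 5 or more libraries of a fit entered the quasi-likelihood test of edgeR (4.0.16, in R 4.3.3) after TMM scaling, with Benjamini-Hochberg adjustment over all genes tested. All adjusted p values are from this test unless DESeq2 is named. One fit held the 23 MRL/MpJ libraries of batch 1 with a mean per joint and time (18 residual degrees of freedom), and gave the change in injured joints, that in contralateral joints and their difference. A second fit held the 30 injured libraries at 1-day and 1-week of the 3 strains (24 degrees of freedom) for the differences between strains. SE was derived from the log2 difference and the F statistic. CPM used TMM factors over the 70 libraries of batch 1.

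No 2 of the 253 pairs of MRL/MpJ libraries held identical counts (0 pairs), and the 42 within-group pairs differed beyond counting noise, with a chi-square per gene of 2.594 to 25.824. Replicate numbers were not used to pair libraries: deviations of same-numbered injured and contralateral libraries correlated between -0.171 and 0.22 at 1-day and between 0.071 and 0.177 at 1-week. On simulated counts of 17310 genes for the comparison of 1-week with 1-day, 94 of 100 genes changed 2-fold and 100 of 100 changed 4-fold were called, with 4 false calls. The changed genes were drawn from those at 1 CPM or more. Each gene was simulated on its own, so recovery at lower counts and variation shared between genes, such as muscle content, were not covered. Few reads make fold changes imprecise.

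The text names, among called genes at 1 CPM or more without overlap, the 8 largest rises and falls and the smallest adjusted p in each direction. It also names up to 4 called and 2 uncalled genes of each list and the largest differences of change between joints (4 each way) and strains (3 each way), and counts genes without a curated name. Some genes that the rule names are not reported here. The 48 gene lists (648 genes, 634 of them tested) and the members of the comparison were chosen with earlier results of these data known. RefSeq positions (GRCm38.p6) matched 202 of 205 named genes. Alternatives were RLE size factors, size factors from the 25 housekeeping genes that the authors used for RUVSeq, RUVg, DESeq2 (version 1.42.0), no filter, edgeR's own filter, a replicate block, other sets of libraries and leaving out each library. The 2-weeks libraries belong to another sequencing batch and were not used here.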

Additional observations from a re-analysis of the deposited data

Results flagged for a closer look

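In 60 groups of 5 libraries tested for a library far from the rest, 6 held one, and chance gives about 1 in 20. In 1-week replicate 3 these were Angptl1 at 102 CPM (next library 74.1), Ankrd1 at 48.5 CPM (31.6) and Ccl2 at 1.13 CPM (0.689). Ccl7 stood at 16.9 CPM in 1-day replicate 2 (12.3), Ighv1-42 at 9.94 CPM in 1-week replicate 5 (1.12), and the fast-muscle sum at 105659 CPM in 1-day replicate 5 (72753).

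Injured and contralateral joints changed differently in 280 genes. The named differences of change on the log2 scale were 5.37 for Agtr2 (adjusted p = 0.000289), 4.08 for C1qtnf3 (3.35e-08), 3.44 for Angptl1 (4.88e-11), 3.35 for Pla2g2a (0.00176), -2.92 for Card14 (0.00349), -3.02 for Ccl2 (0.0147), -3.06 for Catsper4 (0.00859) and -4.13 for Rrad (1.5e-07).

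MRL/MpJ and C57BL/6 changed differently in 594 genes. The named ones were Nmrk2 at 3.14 (adjusted p = 1.28e-05), Trhde at 2.93 (0.000579), C1qtnf2 at 2.91 (4.2e-09), Ankrd1 at -2.85 (0.00139), Lama1 at -3.54 (0.0021) and Pdk4 at -3.83 (6.5e-07).

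MRL/MpJ and STR/ort changed differently in 1300 genes. Named were Ighv1-42 at 4.69 (adjusted p = 0.042), Cd163l1 at 3.68 (0.0145), Fosb at 3.60 (0.00732), Syt17 at -2.91 (0.0176), Greb1 at -2.94 (0.000119) and Brinp3 at -3.04 (0.0241). The Ighv1-42 value was 2.65 (adjusted p = 0.109) without 1-week MRL/MpJ replicate 5.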

How the results depend on the processing

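The comparison of 1-week with 1-day called between 528 and 667 genes in the alternatives against 605, the lowest without the 2 muscle-rich libraries, an alternative chosen after seeing the data (545 to 610 when 1 library was left out). Between 488 and 605 of them were among the 605. Scaling by housekeeping genes moved the median log2 difference to 0.058 from -0.00114 and gave 667 calls, 573 of them among the 605. Of the 667, 79.0% were higher, against 71.6%. The same scaling turned the share of positive calls to 59.2% of 627 from 76.1% of 594 for MRL/MpJ minus C57BL/6. In contralateral joints the share became 66.7% of 24, from 53.6% of 28. The 28 contralateral calls became 17 with RUVg and 13 in a fit of all 70 libraries, 34 with DESeq2, and 15 to 25 when 1 library was left out. The difference between joints gave 205 to 325 calls (254 to 305 leaving out 1 library), that between MRL/MpJ and C57BL/6 560 to 693 (451 to 735) and that between MRL/MpJ and STR/ort 1246 to 1297 (916 to 1466). With the replicate number as a block, 602 genes were called in injured joints, 39 in contralateral joints and 325 in their difference, 560 for MRL/MpJ minus C57BL/6 and 1246 for MRL/MpJ minus STR/ort. The numbers were not shown to pair libraries: 2 of 5 injured libraries at 1-day and 3 of 4 at 1-week correlated best with the contralateral library of their own number. In the descriptions of the samples, however, 1-week contralateral replicates 2, 3 and 4 have library numbers next to those of injured replicates 3, 4 and 5, so equal numbers may not mark 1 animal and the block may join unrelated libraries. Of 4091 values of the 205 named genes under alternatives, 4019 kept their side of the threshold, 56 lost the call and 16 gained it. The sign changed in 78 values of 29 genes, 0 of them of genes called in the comparison. The fit of all 70 libraries ended the calls of Atf3, Egr1, Fosb, Nr4a1, Casq2, Saa3 and Serpina3n, and housekeeping scaling those of Per2, Selp, Inhba and Serpina3n (the cause was not tested). Depth limits genes with few reads, such as Il6 and Saa3.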

Other observations

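Imprinted genes, expressed from 1 parental copy and many of them active in fetal growth, were looked up after the results were seen. Of 24 with enough counts, 11 were called higher at 1-week and 0 lower, and in contralateral joints 0 were called. Dlk1, a fetal inhibitor of fat cell differentiation, differed by log2 1.89 ± 0.25 (adjusted p = 3.34e-06), from 0.978, 0.708, 0.469, 0.713 and 0.817 CPM at 1-day to 2.65, 4.09, 2.35, 2.80 and 2.26 CPM at 1-week. The noncoding RNAs of the same cluster were called too: Meg3 (1.75 ± 0.11), Rian (1.59 ± 0.13) and Mirg (1.37 ± 0.36). Also higher were Zim1 (1.02 ± 0.30), Igf2 (0.96 ± 0.11), Nnat (0.90 ± 0.16), H19 (0.88 ± 0.12), Mest (0.81 ± 0.14), Cdkn1c (0.76 ± 0.082) and Grb10 (0.65 ± 0.065). A list chosen this way supports nothing by its count.

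In families gathered by symbol, also after results were seen, 5 of 23 ADAMTS and ADAMTS-like genes rose and 2 fell (Adamtsl2, log2 -1.66 ± 0.27, and Adamts8, -0.77 ± 0.20). Of 39 proteasome subunits and 78 cytosolic ribosomal proteins edgeR's test called 0, with medians of -0.156 and -0.0424, where 15 and 0 had an adjusted p below 0.05 with a fold under 1.5.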
